A study of Antirrhinum majus with 21 samples.

Results

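The genes described here are those placed on the first 500000 bases of ros_assembly, the sequence of the *Antirrhinum majus* (snapdragon) assembly JICv1 that is named after the flower colour locus ROSEA (ROS). Each gene took its highest-scoring placement, and a gene was a member when that placement lay on ros_assembly and started before base 500000. This chose 68 of 37234 genes. Placements on ros_assembly reached base 923242, and the 57 other genes of its 125 start beyond the limit. The last gene inside was AnMG0000143200 at ros_assembly:493169-493432, and the first outside was AnMG0000143300 at ros_assembly:500322-501275. Expression values played no part in the choice.

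Corolla RNA was sequenced from 21 plants of 7 genotypes with 3 plants each, 1 library per plant. Buds measured 5 to 10 mm, at stage 12 to 13, on plants kept on outside benches. ROSji7_elji7, with magenta flowers, carried the alleles of the laboratory line JI7 at ROS and at the linked locus ELUTA (EL). ROSpse_elpse, also magenta, carried the ROS and EL alleles of the wild magenta *pseudomajus*. ROSji7_ELstr and ROSpse_ELstr paired these ROS alleles with the EL allele of *striatum*, a wild yellow snapdragon, and were scored eluta. The 2 white genotypes were rosstr_ELstr, with *striatum* alleles at both loci, and rosdor_eldor, with alleles of the stock line rosea-dorsea (dor). In rosrec_elpse, scored pale, the ROS allele was a recombinant with *striatum* sequence upstream and *pseudomajus* sequence downstream, beside the *pseudomajus* EL allele. By the labels, the JI7 and *pseudomajus* ROS alleles and the *striatum* EL allele are dominant. The *striatum* and dor ROS alleles and the JI7, *pseudomajus* and dor EL alleles are recessive. The recombinant ROS allele is labelled neither, and the labels give no zygosity. Nor do they give where the recombinant changes over or which end of ros_assembly is upstream. Upstream here follows the coordinates, so *striatum* sequence at the members in rosrec_elpse is assumed. Plants came from 6 families, 1 for each genotype but rosdor_eldor, which had 1 plant in the family of each of ROSpse_elpse, ROSpse_ELstr and rosstr_ELstr.

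ROS is known for MYB transcription factors that switch on the anthocyanin pathway in petals, and EL for restricting where the pigment forms. Alleles at linked loci are inherited together with the genes around them, so a genotype named by its ROS allele also carries nearby sequence of the same origin, as far as the nearest crossover. The files do not pair gene IDs with names, so members are given by ID and position, and which of them belong to ROS is not stated here. No sequence is printed because none was among the sources used here.

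Library totals ran from 8925834 to 41860396 rounded counts. Of the 68 members, 45 passed the expression filter of at least 0.5 CPM (read counts scaled to the library's total) in at least 3 libraries, which is 66.2% against 66.3% of all genes. Mean levels of the tested members ran from 0.59 to 407 CPM with a median of 11.5, beside 13.3 over all genes tested. Of the 23 untested members, 5 had no reads in any library, and the highest mean among the other 18 was 0.271 CPM. The members lay on both strands, 30 on plus and 38 on minus. The 6 members that also had placements on 17 to 148 sequences are uncertain, since reads of near-identical copies can be split among them; 4 of them were tested. In bulk corolla RNA, fewer cells of a type and less RNA per cell cannot be told apart. All libraries were counted on the same set of transcripts. Whether sequence differences between alleles and those transcripts affect the counts was not tested, also where a group has no reads.

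Among genotypes, the level of 18 of the 45 tested members differed, 40.0% (edgeR quasi-likelihood F test over 7 genotypes, Benjamini-Hochberg adjusted p under 0.05). Of all genes tested, 12.1% passed the same test. Of the 35 tested genes on the rest of ros_assembly, 17 (48.6%) passed it, a share no lower than that of the upstream genes. On the log2 scale, the median distance between a member's highest and lowest genotype mean was 1.12, and it was 0.77 over all genes tested. The called members started between bases 15179 and 393052. In steps of 100000 bases from the start, 6 of 14, 4 of 12, 4 of 6, 4 of 9 and 0 of 4 tested members were called. Within the called set, ROSji7_ELstr held the highest mean for 7 members and ROSpse_elpse the lowest for 6.

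**Figure D1:**
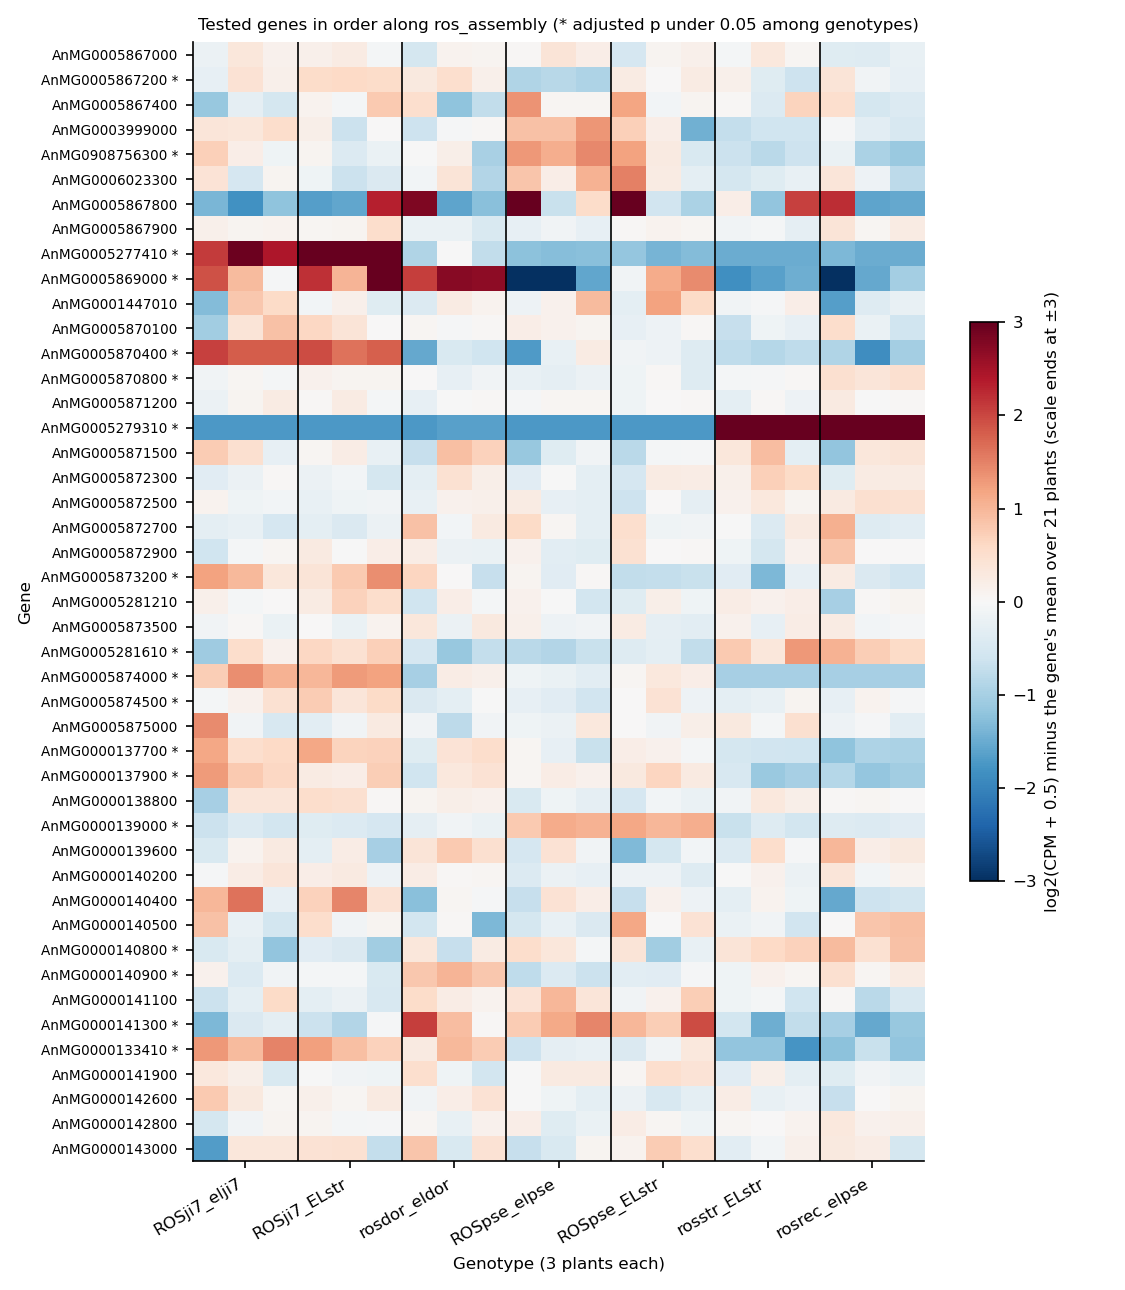
Heat map of the 45 tested genes (rows, in order along the sequence) in 21 plants (columns, grouped by genotype). Colour is log2(CPM + 0.5) minus the gene's mean, and asterisks mark the 18 genes called among genotypes; AnMG0005279310 is high in the 6 plants with *striatum* sequence upstream and AnMG0005277410 in the 6 plants with JI7 alleles.

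Levels were next compared between and within assumed origins of the upstream ROS sequence. The genotypes were put in 4 origins after earlier values had been seen: JI7, *pseudomajus* and *striatum* (rosstr_ELstr and rosrec_elpse) with 2 genotypes each, and dor with 1. Levels differed between origins for 18 members, 40.0%, against 8.05% of all genes tested (edgeR, adjusted p under 0.05). Between the 2 genotypes of 1 origin, which differ at EL or in the downstream part of ROS, 1 member was called, AnMG0005867200, where the background was 4.28%. DESeq2 called 27 members between origins and 4 within. It also called more of all genes than edgeR in both tests, so the higher counts are not particular to the members. Among the 35 tested genes of the rest of ros_assembly, 10 (28.6%) were called between origins and 7 (20.0%) within. Whether the shares of the upstream and the other genes differ was not tested. Plants of different origins also came from different families, except for rosdor_eldor, so origin and family cannot be fully told apart.

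**Figure D2:**
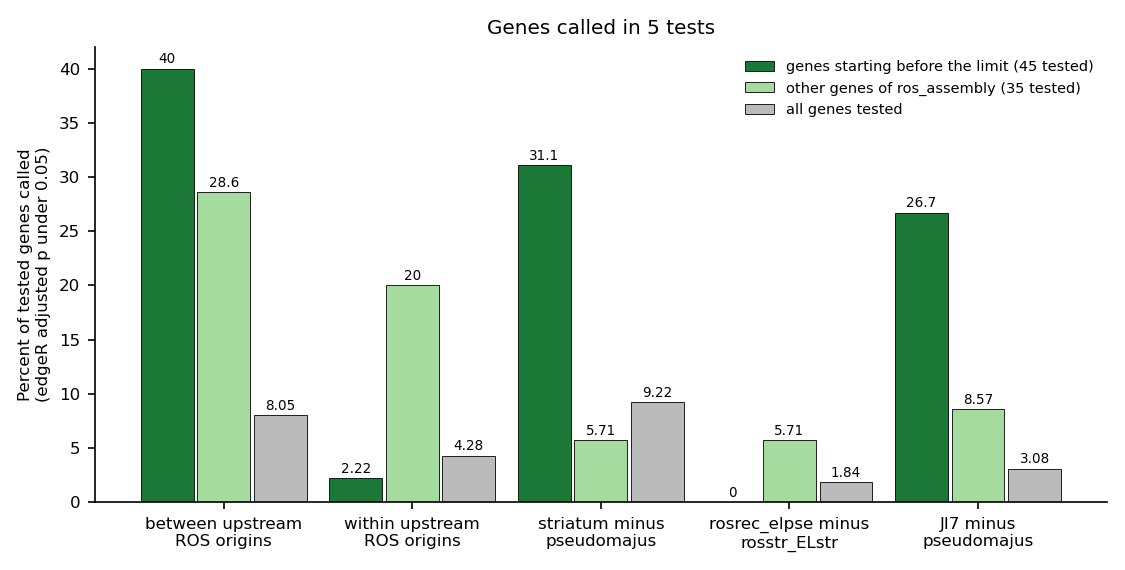
Bars show the percent of tested genes called by edgeR at an adjusted p under 0.05 in 5 tests, for the 45 upstream genes, the 35 other tested genes of ros_assembly and all genes tested. Upstream genes reach 40.0% between upstream origins and 2.22% within them.

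*Striatum* sequence was compared with *pseudomajus* sequence over 2 pairs of genotypes, 6 plants against 6. In this comparison 5 members rose and 9 fell with *striatum* sequence, 31.1% of those tested against a background of 9.22% (5.34% higher and 3.88% lower). The median change of the 45 members was -0.01 on the log2 scale, beside -0.03 over all genes, and the median size of the change was 0.57 beside 0.28. Changes thus ran in both directions and were larger in size at the median than over all genes. All libraries of the highest library number series came from plants with *striatum* sequence, and rosrec_elpse had none in the middle series. *Striatum* sequence and library number series therefore cannot be fully told apart. With the series as a term, 11 members were called, 4 higher and 7 lower, and 10 of them were among the 14 of the main fit. Fewer of all genes were also called with that term.

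AnMG0005279310, at ros_assembly:121686-123759 on the plus strand, had the largest contrast. Its level was 33.9, 31.0 and 38.6 CPM in the 3 rosstr_ELstr plants and 33.4, 25 and 25.6 CPM in the 3 rosrec_elpse plants. It had no reads in the 6 plants with *pseudomajus* ROS and the 6 with JI7 alleles, and 0, 0.0318 and 0.0282 CPM in rosdor_eldor. All 6 plants with upstream *striatum* sequence therefore stood apart from the 15 others. Against a floor of 3 counts over the 6 *pseudomajus* plants, its level was at least 1540-fold higher with *striatum* sequence (adjusted p = 5.19e-07, edgeR). Within the family of rosstr_ELstr, the lone rosdor_eldor plant is the one at 0.0282 CPM. Both of its transcripts behaved in this way: T01 reached 9.27 to 21.1 CPM and T02 reached 11.8 to 23.7 CPM across those 6 plants, and each was called among genotypes (edgeR adjusted p = 0.000196 and 1.4e-05).

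AnMG0000139000, at ros_assembly:295677-302251 on the minus strand, marked the *pseudomajus* plants. It measured 57.7, 72.5 and 68.8 CPM in ROSpse_elpse and 74.3, 66.4 and 71.6 CPM in ROSpse_ELstr. In the 15 plants of the other 5 genotypes it ran from 20.8 to 30.6 CPM, with no overlap. With *striatum* sequence it fell by 1.51 ± 0.08 on the log2 scale (SE; adjusted p = 2.53e-08, edgeR), and with JI7 alleles it fell by 1.53 ± 0.08 (adjusted p = 1.01e-08). The rosdor_eldor plants of the ROSpse_elpse and ROSpse_ELstr families were at 27.2 and 30.6 CPM, below every *pseudomajus* plant of the same family.

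**Figure D3:**
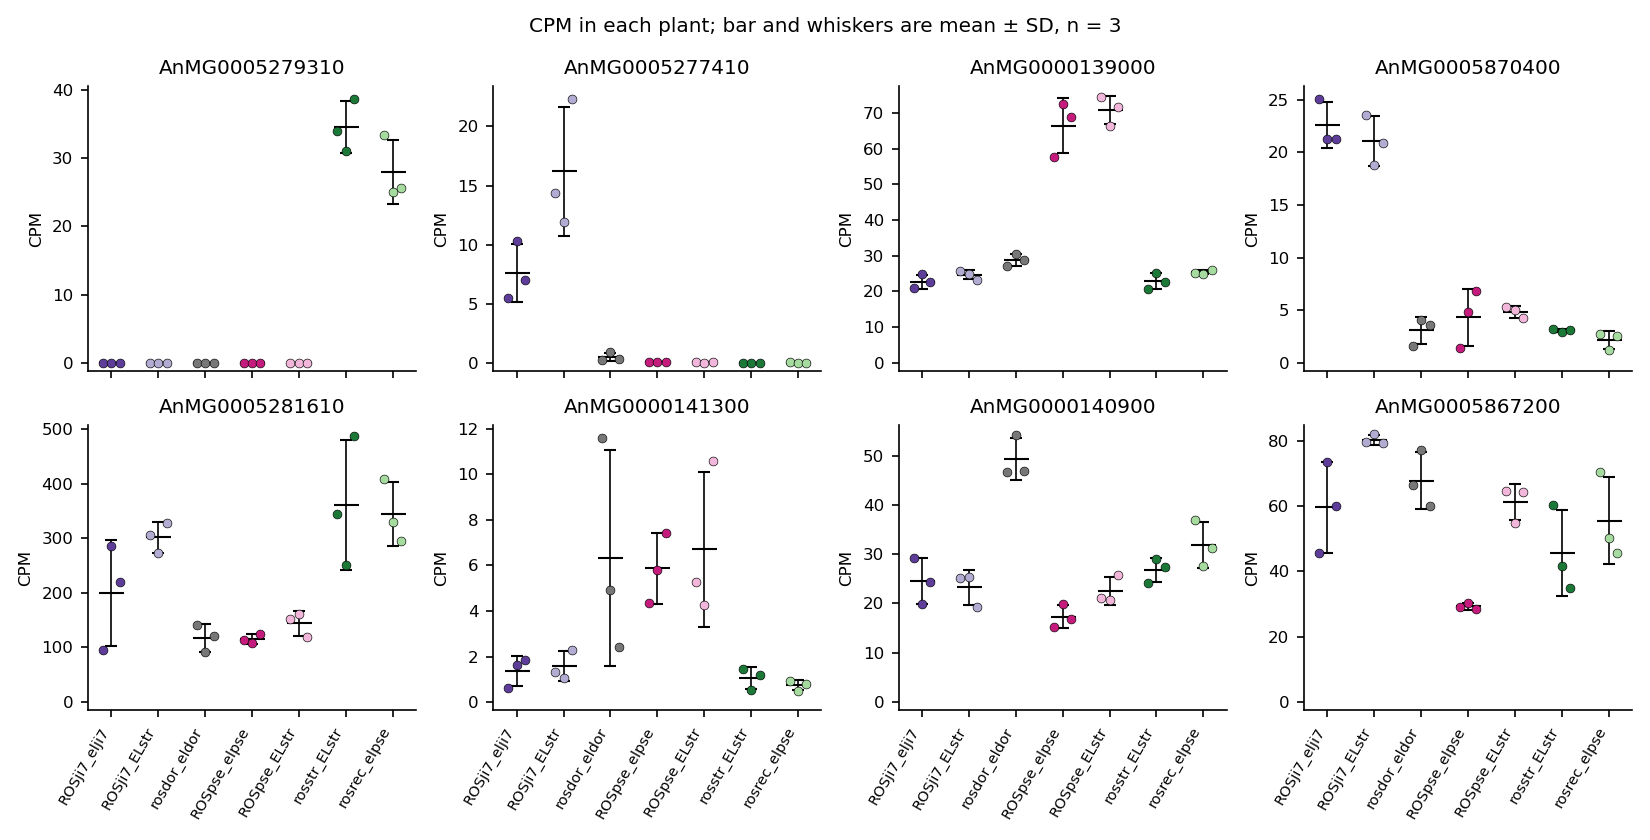
CPM of 8 called genes in each of 21 plants, with the mean and SD of each genotype (n = 3). AnMG0000139000 lies between 57.7 and 74.3 CPM in the 6 *pseudomajus* plants and at or below 30.6 CPM in all others shown.

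A pair of overlapping members moved in opposite directions. AnMG0005281610, at ros_assembly:185315-187038 on the minus strand, measured 344, 251 and 487 CPM in rosstr_ELstr and 408, 330 and 294 CPM in rosrec_elpse. In the 6 *pseudomajus* plants it ran from 108 to 161 CPM. It rose by 1.45 ± 0.22 on the log2 scale with *striatum* sequence (SE; adjusted p = 0.00189, edgeR), with no overlap between plants. AnMG0005874000 covers 222 bases inside that gene on the same strand (ros_assembly:186459-186680). It had no reads in the 6 plants with *striatum* sequence, and 0.31 to 0.755 CPM in the 6 *pseudomajus* plants. Its level was at least 34.0-fold lower with *striatum* sequence (floor of 3 counts over the group; adjusted p = 0.000792, edgeR). Since the placements overlap, how counting shared reads between them affects both values was not tested.

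Lower-level members also fell with *striatum* sequence. AnMG0000141300 (ros_assembly:391126-391952) ran from 0.49 to 1.46 CPM in the 6 *striatum* plants and from 4.27 to 10.6 CPM in the 6 *pseudomajus* plants, and it fell by 2.81 ± 0.42 (SE, log2; adjusted p = 0.00172, edgeR). AnMG0000137900 (ros_assembly:270036-273031) ran from 0.432 to 0.998 CPM against 1.69 to 2.79 CPM, and fell by 1.77 ± 0.27 (adjusted p = 0.00191). For these 2 genes the groups did not overlap.

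AnMG0000137700 (ros_assembly:264902-267751) fell by 1.63 ± 0.33 (SE, log2; adjusted p = 0.00667, edgeR) from a mean of 0.726 CPM, near the filter. AnMG0908756300 (ros_assembly:26958-27635) fell by 1.76 ± 0.30 (adjusted p = 0.003), but it also has placements on 72 sequences and its level is uncertain. In both, the highest *striatum* plant lay above the lowest *pseudomajus* plant. Smaller changes were called in 4 more members. AnMG0000140900, AnMG0005872500 and AnMG0005870800 rose by 0.57, 0.48 and 0.41 on the log2 scale, and AnMG0000141100 fell by 0.81. Plants of the groups overlapped in all 4. From ROSpse_elpse to rosrec_elpse AnMG0000140900 and AnMG0005870800 rose by 0.88 and 0.69, but from ROSpse_ELstr to rosstr_ELstr by 0.25 and 0.14. In the same pairs AnMG0005872500 changed by 0.49 and 0.46, and AnMG0000141100 by -1.04 and -0.59.

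AnMG0005277410 had 1 read over the *striatum* plants and 12 over the *pseudomajus* plants, a ratio of 16.3 (95% counting interval 2.41 to 697, counting error only). The remaining called gene, AnMG0000133410, is described with its transcripts further on.

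The comparison can be split into pairs that share no library. From ROSpse_ELstr to rosstr_ELstr, 4 members were called, 8.89% against a background of 0.454% (edgeR). From ROSpse_elpse to rosrec_elpse, 12 were called, 5 higher and 7 lower, 26.7% against 13.6% (7.27% higher and 6.31% lower). The 4 calls of the first pair came to 2 without ROSpse_ELstr replicate 3 or rosstr_ELstr replicate 1 or 2. The members called in both were AnMG0005279310, AnMG0005874000 and AnMG0000139000. Across the 45 members, the fold changes of the pairs had the same sign for 30, with Pearson's r of 0.933 and Spearman's rho of 0.633. Without AnMG0005279310, r was 0.802 and rho 0.607 over 44 members. Among these, AnMG0005874000 and AnMG0005277410 had 0 and 1 reads over the *striatum* plants, so the size of their fitted changes is uncertain. Over all genes tested, 56.3% had the same sign and r was 0.0837, and over the 35 other tested genes of ros_assembly 23 had the same sign and r was 0.211. The share with the same sign was thus 66.7% for the upstream genes and 65.7% for the others. These correlations are across genes, which are not independent, and are given as a description.

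**Figure D4:**
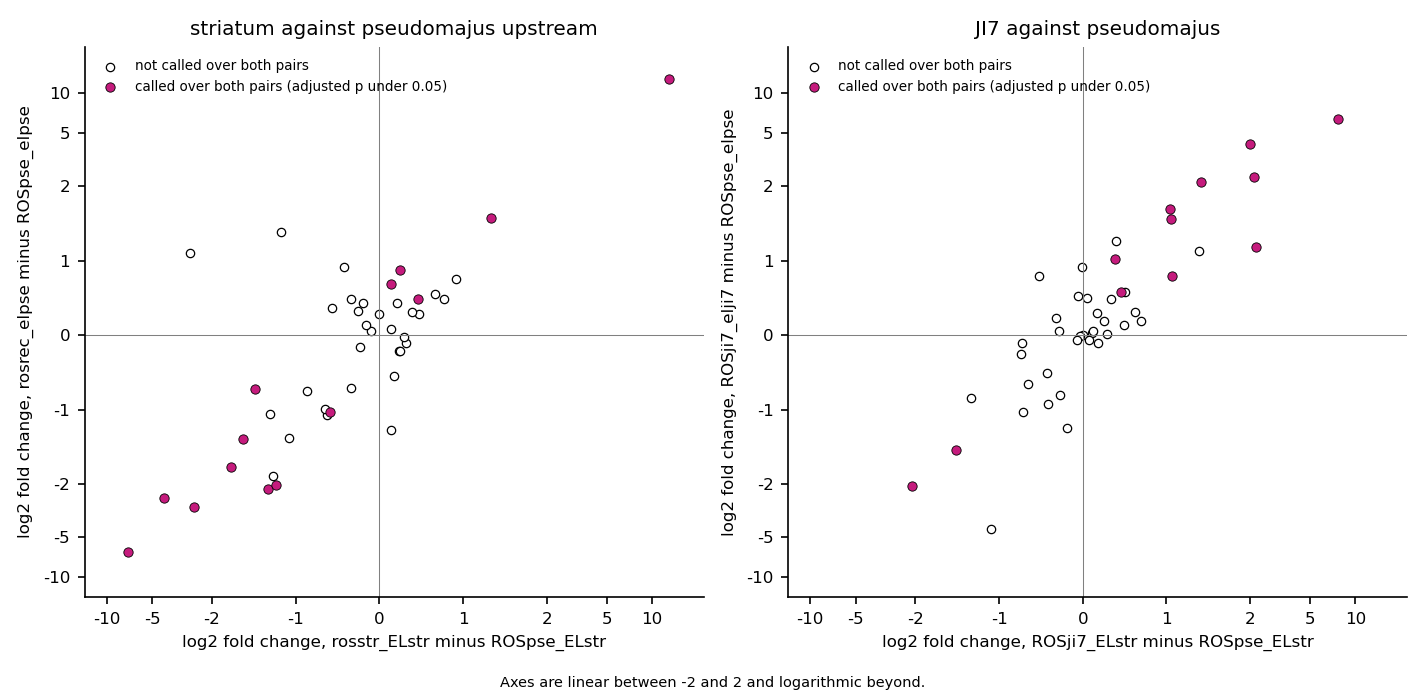
Log2 fold changes of the 45 upstream genes in pairs of genotypes with no library in common: *striatum* against *pseudomajus* (left) and JI7 against *pseudomajus* (right), with axes logarithmic beyond 2. Filled points were called over both pairs together. On the left, 30 of 45 genes have the same sign. On the right, 37 of 44 do, leaving out AnMG0005279310, which had no reads in those plants. Fitted values of genes with no reads in a group depend on the prior count.

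The genotypes that share upstream *striatum* sequence, rosrec_elpse and rosstr_ELstr, differ downstream and at EL. Between them edgeR called 0 of 45 members (background 1.84%), with 4 at an unadjusted p under 0.05. DESeq2 called 1, AnMG0005870800 (ros_assembly:99817-104755). Its level was 15.4, 14.1 and 15.3 CPM in rosrec_elpse, and 10.4, 10.6 and 11.1 CPM in rosstr_ELstr. The plants did not overlap, and the 6 *pseudomajus* plants ran from 8.2 to 11.1 CPM.

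JI7 alleles were compared with *pseudomajus* alleles in the same way, 6 plants against 6. In this case 10 members rose and 2 fell with JI7 alleles, 26.7% against a background of 3.08% (1.15% higher and 1.93% lower; edgeR). The median change was 0.15 on the log2 scale beside 0.03 over all genes. Leaving out 1 plant of ROSji7_ELstr (replicate 2 or 3), ROSpse_elpse (1 or 2) or ROSpse_ELstr (1 or 3) brought the count to 7, with 5 higher and 2 lower.

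AnMG0005277410, at ros_assembly:50042-51379 on the minus strand, had the largest of these fold changes. It measured 5.49, 10.3 and 7.04 CPM in ROSji7_elji7 and 14.4, 11.9 and 22.3 CPM in ROSji7_ELstr. In rosdor_eldor it was at 0.253, 0.89 and 0.339 CPM, in the 6 *pseudomajus* plants it reached at most 0.123 CPM, and in the *striatum* plants at most 0.0547 CPM. Levels thus fell in steps from JI7 to dor to the wild origins, and the plants of JI7 overlapped with no other. The rise with JI7 alleles was 7.02 ± 0.47 on the log2 scale (SE; adjusted p = 9.46e-07, edgeR).

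An untested neighbour had reads in JI7 plants alone. AnMG0005277110 (ros_assembly:46942-49330) had 0, 4 and 6 reads in ROSji7_elji7, 13, 9 and 18 in ROSji7_ELstr, and 0 in each of the 15 other plants. Beside AnMG0005279310, AnMG0005871400 (ros_assembly:125602-127498) had 3, 5 and 9 reads in rosstr_ELstr and 2, 10 and 11 in rosrec_elpse. It had at most 3 in any other plant, with 1, 2 and 1 in ROSji7_ELstr, so it was not confined to *striatum* plants and the plants overlapped. These 2 genes failed the filter, were picked after their values were seen, and have no test.

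AnMG0005870400, at ros_assembly:96590-97658 on the minus strand, measured 25.1, 21.3 and 21.3 CPM in ROSji7_elji7 and 23.5, 18.8 and 20.9 CPM in ROSji7_ELstr. The other 15 plants ran from 1.21 to 6.79 CPM, so JI7 plants stood apart. Against *pseudomajus* it rose by 2.24 ± 0.30 on the log2 scale (SE; adjusted p = 0.000902, edgeR). It overlaps AnMG0005870100 on the opposite strand, and whether counting used strand is not given in the sources used here, so reads of the pair cannot be told apart. AnMG0005870100 itself was not called among genotypes (adjusted p = 0.631), with 12.8 to 49.8 CPM in JI7 plants and 22.6 to 30.9 CPM in *pseudomajus* plants.

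Other JI7 calls were smaller or less steady. AnMG0005873200 (ros_assembly:176226-177801) ran from 1.95 to 4.6 CPM in JI7 plants and from 0.674 to 1.55 CPM in *pseudomajus* plants, a rise of 1.68 ± 0.38 (SE, log2; adjusted p = 0.0276, edgeR). AnMG0000137700 rose by 1.31 ± 0.31, AnMG0005281610 by 0.93 ± 0.22, AnMG0005867200 by 0.71 ± 0.14 and AnMG0005874500 by 0.52 ± 0.13. AnMG0005869000 rose by 3.07 ± 0.65 (adjusted p = 0.0224), with overlapping plants. That call ended in the middle library number series alone, and without ROSji7_ELstr replicate 3 or ROSpse_elpse replicate 1. AnMG0005874000 rose by 1.77 ± 0.43 (adjusted p = 0.0458), a call that ended when any 1 of the 12 plants was left out. AnMG0000141300 fell by 2.09 ± 0.41 (adjusted p = 0.0126), and its 6 JI7 plants, at 0.635 to 2.31 CPM, did not overlap with the *pseudomajus* plants.

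The pairs behind this comparison again share no library. ROSji7_elji7 against ROSpse_elpse called 7 members (15.6%, background 4.62%; edgeR), and ROSji7_ELstr against ROSpse_ELstr called 3 (6.67%, background 0.608%). AnMG0005277410, AnMG0005870400 and AnMG0000139000 were called in both, but the AnMG0005870400 call of the second pair (adjusted p = 0.0285) ended when any 1 of its 6 plants was left out, with an adjusted p of up to 0.143. Among the 35 other tested genes of ros_assembly, the first pair called 7 (20.0%) and the second 2 (5.71%). AnMG0005279310 had no reads in any of these plants and was left out here. Fold changes had the same sign for 37 of the 44 remaining members, with r of 0.865 and rho of 0.835. Over all genes tested, 59.8% had the same sign and r was 0.237. Of the 35 other tested genes of ros_assembly, 21 had the same sign, with r of 0.47 and rho of 0.0955. As before, these are descriptions across genes.

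AnMG0000133410, at ros_assembly:393052-396940 on the minus strand, separated the origins in order. It measured 17.7, 13.7 and 20.1 CPM in ROSji7_elji7 and 16.7, 13.3 and 11.4 CPM in ROSji7_ELstr. In rosdor_eldor it measured 8.34, 14.0 and 11.9 CPM. The 6 *pseudomajus* plants ran from 4.31 to 8.71 CPM and the 6 *striatum* plants from 1.66 to 4.12 CPM. JI7, *pseudomajus* and *striatum* plants did not overlap, whereas dor plants overlapped with JI7 and with *pseudomajus*. It rose by 1.37 ± 0.20 from *pseudomajus* to JI7 (SE, log2; adjusted p = 0.00155, edgeR) and fell by 1.11 ± 0.20 from *pseudomajus* to *striatum* (adjusted p = 0.00378).

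The transcripts assigned to that gene changed with origin as well. Transcript T02 took all of its estimated reads in the 15 plants without *striatum* sequence, where T01 was listed at 0. In rosrec_elpse T01 was at 2.69, 4.08 and 2.71 CPM and T02 at 0 in each plant. In rosstr_ELstr T01 was at 2.73, 2.76 and 0 CPM and T02 at 0, 0 and 1.65 CPM. Thus 5 of the 6 *striatum* plants were assigned T01 and the other T02. T02 was called among genotypes (adjusted p = 0.0108, edgeR on transcripts) and T01 was not (adjusted p = 0.0552). A listed 0 is the authors' estimate of how reads that match both transcripts divide, not a direct count.

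Of the 11 members with several transcripts, 26 transcripts were tested and 5 called, of 19 called among 60 for all members, where 5.97% of all transcripts tested were called. AnMG0005872300 and AnMG0000140200 had a called transcript although the gene was not called. T02 of AnMG0005872300 measured 41.1, 59.5 and 52.9 CPM in rosstr_ELstr but 18.9, 23.3 and 26.0 CPM in rosrec_elpse, so these 2 genotypes with upstream *striatum* sequence did not overlap (adjusted p = 0.00632 over 7 genotypes, edgeR). T02 was 45.1% ± 1.12 of that gene's TPM in rosstr_ELstr and 26.9% ± 2.34 in rosrec_elpse (SD, n = 3). The JI7 genotypes had shares like that of rosstr_ELstr, 47.7% ± 8.03 in ROSji7_elji7 and 48.4% ± 4.84 in ROSji7_ELstr. Mean shares were 20.9% in rosdor_eldor, 33.5% in ROSpse_elpse and 28.7% in ROSpse_ELstr. T03 of AnMG0000140200 averaged 14.1 ± 10.2 CPM in ROSji7_elji7 and 17.1 ± 4.5 CPM in ROSji7_ELstr (SD, n = 3), beside means of 3.43 to 6.7 CPM in the other 5 genotypes (adjusted p = 0.00876). The spread in ROSji7_elji7 came from plants at 5.93, 25.5 and 10.9 CPM, the lowest of which overlapped with rosstr_ELstr.

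**Figure D5:**
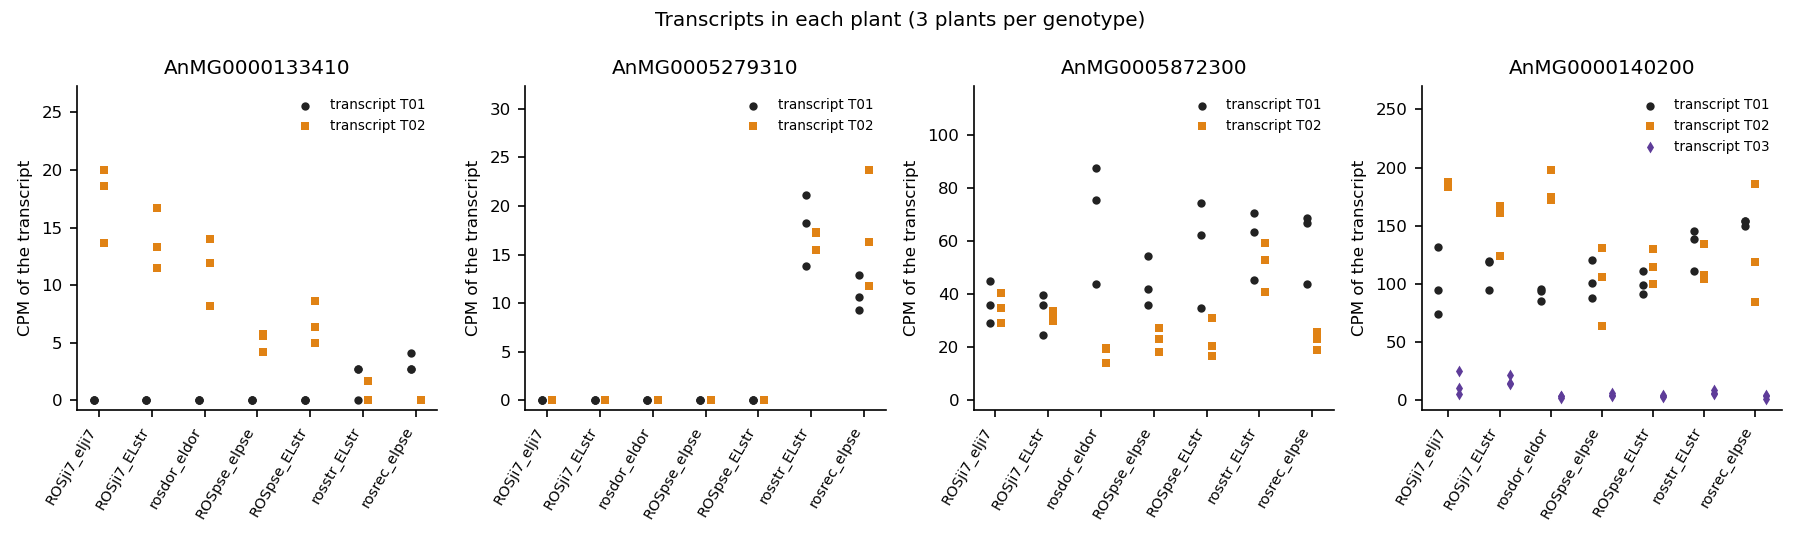
CPM of each transcript of 4 genes in every plant, 3 plants per genotype; marker shape and colour give the transcript. In AnMG0000133410 transcript T02 is the one listed above 0 in the 15 plants without *striatum* sequence, and T01 is at 2.69 to 4.08 CPM in 5 of the 6 plants with it.

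The genotype rosdor_eldor stood out at AnMG0000140900 (ros_assembly:378255-382428, plus strand). It measured 46.7, 54.2 and 46.9 CPM there and between 15.3 and 36.9 CPM in the 18 other plants, with no overlap. Against rosdor_eldor, ROSpse_elpse was lower by a log2 change of -1.51 ± 0.17 (SE; adjusted p = 0.00125, edgeR) and ROSji7_elji7 by -1.01 ± 0.17 (adjusted p = 0.0166). The 3 comparisons with rosdor_eldor share its plants. ROSpse_elpse against it called 4 members (8.89%, background 0.515%). ROSji7_elji7 against it called 3 (6.67%, background 0.223%), and 0 without rosdor_eldor replicate 3. Among the 35 other tested genes of ros_assembly, each of these comparisons called 3 (8.57%), and that of the white genotypes called 1 (2.86%). The white genotypes differed at 4 members (background 0.0770%): AnMG0005279310 was higher in rosstr_ELstr, and AnMG0005277410, AnMG0005874000 and AnMG0000133410 were lower. For AnMG0000133410 this change was -2.26 ± 0.29 (SE, log2; adjusted p = 0.0019, edgeR). With plant family as a term 0 of the 4 calls were left, with an adjusted p of 0.0798 for AnMG0005279310 and 0.278 for AnMG0000133410. With only the 2 white genotypes in the fit 2 members were called, and AnMG0000133410 had an adjusted p of 0.607.

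Genotypes with different EL alleles were then compared within a ROS allele. From ROSpse_elpse to ROSpse_ELstr 2 members were called, 4.44% against a background of 2.82% of all genes tested (edgeR), a share near the background. These genotypes came from different families, and with plant family as a term, or in the 13 libraries of the middle library number series alone, 0 members were called. From ROSji7_elji7 to ROSji7_ELstr edgeR called 0 (background 0.190%), with 3 at an unadjusted p under 0.05, and DESeq2 called 0. The test of whether the EL difference depends on the ROS allele also called 0 (background 0.494%), with 1 at an unadjusted p under 0.05 and 0 by DESeq2. A call with *pseudomajus* ROS and none with JI7 ROS is therefore not shown to differ between them.

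The 2 genes called were AnMG0005867200 and AnMG0005869000. AnMG0005867200 (ros_assembly:15179-16002, minus strand) was at 29.0, 30.3 and 28.5 CPM in ROSpse_elpse and at 64.5, 54.9 and 64.2 CPM in ROSpse_ELstr. Its lowest value in the 18 plants outside ROSpse_elpse was 34.9 CPM, so that genotype was below all others. The rise between these genotypes was 1.06 ± 0.21 on the log2 scale (SE; adjusted p = 0.0108, edgeR), with an adjusted p of 0.45 when plant family was a term, and it was not called in the middle series alone. It was also the 1 member called when the *striatum* against *pseudomajus* change was compared between the pairs that share no library (interaction -1.35 ± 0.29, SE, log2; adjusted p = 0.0156, edgeR). That is 2.22% of the tested members, beside a background of 3.03%. These pairs differ in EL allele, in whether the downstream part of ROS changes and in plant families, which cannot be told apart.

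AnMG0005869000 (ros_assembly:53672-58009, minus strand) varied widely among plants of 1 genotype. It measured 0.515, 0.167 and 2.88 CPM in ROSpse_elpse, and 8.89, 21.1 and 26.3 CPM in ROSpse_ELstr. In ROSji7_ELstr it measured 45.6, 19.8 and 163 CPM, and in rosdor_eldor 41.9, 66.3 and 63.8 CPM. It was lowest in ROSpse_elpse and in the *striatum* plants (0.274 to 4.48 CPM), and these overlapped. Its rise with the *striatum* EL allele was 3.92 ± 0.97 (SE, log2; adjusted p = 0.0386, edgeR), a call that ended without replicate 1 or 2 of ROSpse_elpse or replicate 2 or 3 of ROSpse_ELstr. From rosdor_eldor to ROSpse_elpse the change was -5.53 ± 1.04 (SE, log2; adjusted p = 0.0263, edgeR). That call ended without replicate 2 or 3 of rosdor_eldor or replicate 1 or 2 of ROSpse_elpse.

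Per unit of length, the most abundant members were AnMG0001447010 at a mean of 842 TPM, AnMG0005281610 at 421 TPM and AnMG0005867900 at 275 TPM, followed by AnMG0000140200 at 188 TPM and AnMG0006023300, whose genotype means ran from 116 to 306 TPM. AnMG0001447010 and AnMG0006023300 are 225 and 203 bases long with placements on 58 and 148 sequences, so their levels are uncertain. Of these 5, AnMG0005281610 was called among genotypes. AnMG0000140800 (ros_assembly:361546-363606) completed the called set, with 5.26 to 10.3 CPM in JI7 plants and 16.6 to 24.9 CPM in the *striatum* plants, and no overlap (adjusted p = 0.0431 over 7 genotypes, edgeR). AnMG0000140400, called between origins alone, had its highest means in JI7 plants, at 3.64 ± 2.37 and 3.48 ± 1.53 CPM (SD, n = 3).

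Plant family and genotype overlap in this design. A fit with family added can tell them apart only through the single rosdor_eldor plants. In it the change of AnMG0005279310 from ROSpse_ELstr to rosstr_ELstr had an adjusted p of 0.66 and that of AnMG0000139000 one of 0.399 (edgeR), and 0 members were called there. For ROSpse_elpse minus rosdor_eldor, the calls of AnMG0000139000, AnMG0000140900 and AnMG0005869000 were kept with family added, and that of AnMG0005867200 was lost. That comparison rests on the single rosdor_eldor plant of the ROSpse_elpse family.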

How the data were processed

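The submitters' processing notes name Salmon 0.9.1, cutadapt 1.16 and DESeq2 without their roles. The authors deposited, for each library, the estimated count (not normalised) and TPM of each of 51926 transcripts, from 50 bp single-end reads. TPM in the deposited tables is scaled to the same total per library and entered no test. The authors' alignment score was used to choose among placements. Use of strand is not given in the sources used here.

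Estimated counts were summed to 37234 genes and rounded. Tests were edgeR 4.0.16 quasi-likelihood F tests (R 4.3.3, limma 3.58.1) with TMM scaling and 1 mean per genotype over all 21 libraries; 24674 genes had at least 0.5 CPM in at least 3 libraries. Values are TMM-scaled CPM. p-values were adjusted over all genes tested, and a gene was called at an adjusted p under 0.05. The biological coefficient of variation was 0.4. SE was taken as the log2 change over the root of F. Floors and intervals cover counting error only. The procedure was tested on simulated counts.

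Named in each comparison were up to 5 called members with the largest change whose higher group averaged 1 CPM or more, the 15 with the smallest p among genotypes, the 5 with the highest mean TPM, members with several tested transcripts and those at the position limit; other called members and untested genes were named after their values were seen. Members, lists and tests were chosen with earlier results of these data known. The tests between and within origins, both JI7 pairs and the test of EL by ROS were added after seeing the data. Alternatives were DESeq2 1.42.0, its size factors, no filter, the library number series or plant family as a term, the middle series alone, only the groups compared, and each plant left out. Pigment gene and cell type marker lists were not used here, because IDs have no names in the files, so the tissue was not checked against markers.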

Additional observations from a re-analysis of the deposited data

Results flagged for a closer look

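AnMG0005867200 (ros_assembly:15179-16002) is the 1 member at which the change from *pseudomajus* to *striatum* differed between the pairs of genotypes, by a test of the difference itself. From ROSpse_ELstr to rosstr_ELstr the whole ROS allele changes, and from ROSpse_elpse to rosrec_elpse its upstream part alone. EL allele and downstream ROS sequence therefore cannot be told apart in this test. Nor can plant family, since each of these genotypes came from its own family. The library number series also differed between rosrec_elpse and ROSpse_elpse. It was higher in rosrec_elpse than in ROSpse_elpse by 0.92 ± 0.20 (SE, log2; adjusted p = 0.00752, edgeR), whereas rosstr_ELstr averaged 45.6 ± 13.1 CPM and ROSpse_ELstr 61.2 ± 5.45 CPM (SD, n = 3). The difference between the differences was -1.35 ± 0.29 (SE, log2; adjusted p = 0.0156, edgeR). This test called 2.22% of the tested members and 3.03% of all genes tested. The low values of ROSpse_elpse enter both this test and its EL comparison. DESeq2 called 5 members. Its cause was not tested.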

How the results depend on the processing

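No paired analysis was possible because replicate numbers only name plants; the family labels, which tie single rosdor_eldor plants to other genotypes, were fitted as a term. Of 292 counts of called members under alternatives, 248 stayed within 1.5 times the main count, and of 892 values of named genes 800 kept their call and 92 lost it, with no direction reversed. DESeq2 called 4 members within origins, 8 for rosstr_ELstr minus ROSpse_ELstr, 1 for rosrec_elpse minus rosstr_ELstr, 7 for ROSpse_elpse minus rosdor_eldor, 9 for rosstr_ELstr minus rosdor_eldor, 5 for striatum by EL, 11 for ROSji7_elji7 minus ROSpse_elpse and 7 for ROSji7_ELstr minus ROSpse_ELstr. The middle series alone, with fewer plants, gave 6 among genotypes, 6 for JI7 minus *pseudomajus*, 2 each for rosstr_ELstr minus ROSpse_ELstr, ROSpse_elpse minus rosdor_eldor and rosstr_ELstr minus rosdor_eldor, and 0 for ROSpse_ELstr minus ROSpse_elpse. Plant family as a term gave 0 for rosstr_ELstr minus ROSpse_ELstr, rosstr_ELstr minus rosdor_eldor and ROSpse_ELstr minus ROSpse_elpse. Fitting the compared groups alone gave 1 for ROSpse_elpse minus rosdor_eldor, 0 for ROSji7_elji7 minus rosdor_eldor, 2 for rosstr_ELstr minus rosdor_eldor, 1 for ROSpse_ELstr minus ROSpse_elpse, 2 for striatum by EL and 3 for ROSji7_elji7 minus ROSpse_elpse. In each DESeq2 comparison listed here, more of all genes were also called than in the main fit. Fewer of all genes were called in each listed fit of the middle series or with plant family. Fitting the compared groups alone called fewer of all genes in each listed comparison except striatum by EL, where it called more. Causes were not tested beyond the fewer plants.

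Leaving out each plant in turn gave 15 to 19 members among genotypes, 15 to 20 between and 0 to 2 within origins, 12 to 15 for *striatum* minus *pseudomajus*, 2 to 4 for rosstr_ELstr minus ROSpse_ELstr, 11 to 14 for rosrec_elpse minus ROSpse_elpse and 0 to 0 for rosrec_elpse minus rosstr_ELstr. It gave 2 to 4, 0 to 3 and 3 to 4 for ROSpse_elpse, ROSji7_elji7 and rosstr_ELstr minus rosdor_eldor, and 7 to 11 for JI7 minus *pseudomajus*. It gave 1 to 2 for ROSpse_ELstr minus ROSpse_elpse, 0 to 0 for ROSji7_ELstr minus ROSji7_elji7, 1 to 2 for striatum by EL, 5 to 7 for ROSji7_elji7 minus ROSpse_elpse, 2 to 2 for ROSji7_ELstr minus ROSpse_ELstr, 0 to 0 for EL by ROS and 16 to 21 transcripts. The single call within origins was lost without ROSpse_elpse replicate 2. The 4 calls for rosstr_ELstr minus ROSpse_ELstr came to 2 without ROSpse_ELstr replicate 3 or rosstr_ELstr replicate 1 or 2, and the 4 for ROSpse_elpse minus rosdor_eldor to 2 without rosdor_eldor replicate 2 or ROSpse_elpse replicate 1 or 2.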

Other observations

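AnMG0005867800 (ros_assembly:31543-32976, minus strand) moved with the library numbers. In the 5 libraries with numbers below those of the main series it ran from 13.2 to 31.3 CPM. In the 13 libraries of the middle series its median was 0.767 CPM and its highest value 11.7 CPM, and in the 3 with the highest numbers it ran from 0.49 to 2.86 CPM. The 5 low-numbered libraries, which came from 5 genotypes, thus lay above the other 16. AnMG0005867400 (ros_assembly:16793-22731), which lies nearby, ran from 43.6 to 78.6 CPM, 12.9 to 49.1 CPM and 21.1 to 31.5 CPM in the same 3 series. Neither gene was called among genotypes (adjusted p = 0.664 and 0.389, edgeR). This pattern was noticed in the data and was not tested.

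AnMG0000139200 (ros_assembly:302959-307803), an untested gene beside AnMG0000139000, had 83 reads in rosdor_eldor replicate 2 and at most 7 in any other library.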
